A study of Bos taurus with 20 samples.

Results

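The enzymes that turn cholesterol into androgens and estradiol were followed across the cells of the bovine antral follicle. The genes considered were STAR, CYP11A1, CYP17A1, CYP19A1, HSD17B1, FDX1, and POR, which are 7 of the 22550 genes or transcripts on the array, and all 7 were measured on all 20 arrays. They were found as the non-control spots whose gene name, without its transcript suffix, equalled a symbol of this list. The measurements came from 20 one-colour Agilent arrays, 4 for each of 5 groups, all of Bos taurus and all prepared from follicles of 3 to 6 mm with 200 ng of total RNA labelled with Cy3. The groups were theca cells (TH), which were scraped from the follicle wall after the follicle had been emptied, granulosa cells (GC), cumulus cells (CC) detached from the oocyte, the oocytes themselves, and CC taken after the complex had been matured in vitro (IVM) for 4 h. All ovaries came from slaughter, no animal was treated, and no age or breed is given in the sources used here. The first 4 groups were not matured in vitro and differ in cell type, and the last differs from CC in the culture step. The question put to these genes was how the steps of steroid synthesis were distributed over the follicular cells and the oocyte.

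In the follicle, steroid synthesis is divided between cell layers. Theca cells respond to luteinizing hormone and make androgens from cholesterol, and granulosa cells respond to follicle-stimulating hormone and convert these androgens into estrogens. STAR brings cholesterol into the mitochondrion. CYP11A1 cleaves its side chain to give pregnenolone, with electrons handed on by ferredoxin, which FDX1 encodes. CYP17A1 makes androgens, and CYP19A1 (aromatase) makes estrogens, and both draw electrons from POR. HSD17B1 reduces estrone to estradiol.

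Each gene was measured by several spots, each carrying an oligonucleotide of 60 bases. STAR had 2 distinct probes spotted 2 times each, CYP19A1 likewise, FDX1 had 4 probes for 2 transcripts, and the other 4 genes had 2 probes each. On the UMD 3.1 assembly, the files place STAR at chr27:33016930-33024353, CYP11A1 at chr21:34724307-34734990, CYP17A1 at chr26:23694362-23700404, CYP19A1 at chr10:59227895-59282939, HSD17B1 at chr19:43268326-43270819, the longer FDX1 transcript at chr15:20772023-20807753, and POR at chr25:34672093-34726073. These are spans of whole transcripts without a strand, and the position of a probe within its exons was not analysed here. The pair of CYP17A1 probes is shown because this gene separated TH from every other cell type; each has 1 frame without a stop codon.
CYP17A1 probe A: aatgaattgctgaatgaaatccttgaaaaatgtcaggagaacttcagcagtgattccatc
CYP17A1 probe B: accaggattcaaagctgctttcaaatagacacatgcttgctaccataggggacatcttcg

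The CYP19A1 probes are shown because they are not independent measurements. They share 49 of their 60 bases, and in the opening 30 bases printed here the capitals mark the 19 that both contain.
CYP19A1 probe A: aatgcatatagATAAGGTAATCTGGTCCTC
CYP19A1 probe B: ATAAGGTAATCTGGTCCTCaaacccagccc

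HSD17B1 and POR each had a probe containing AATAAA (capitals, 30 bases shown), the letters of a poly(A) signal, and a probe without it that is printed in full. The levels of these probes differed in the way described further below.
HSD17B1 probe A: ctctcgccccgcAATAAAggcctaatccgc
HSD17B1 probe B: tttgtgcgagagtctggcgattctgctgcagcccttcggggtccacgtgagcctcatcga
POR probe A: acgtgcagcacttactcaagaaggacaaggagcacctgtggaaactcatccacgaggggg
POR probe B: ttaaataacctctggcccttggAATAAAgt

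Gene expression values below are the log2 processed signal of a gene minus the 75th percentile of its array, so that 0 is the level below which 75% of the probes of an array lie. Arrays had 54.2 to 68.8% of probes well above background, apart from oocyte replicate 2 with 49.3%. A gene was counted as above background on an array if any of its spots was so marked. As marker genes, the 5 theca genes INSL3, COL1A1, COL1A2, ACTA2, and PDGFRA had a mean value of 5.85 to 6.12 on TH arrays, 1.13 to 3.22 on GC arrays, and -0.17 to 1.00 on CC arrays, and all 5 were above background on every GC and CC array. The 6 oocyte genes GDF9, BMP15, ZP2, ZP3, ZP4, and NLRP5 averaged 5.14 to 5.53 on oocyte arrays, -3.61 to -1.38 on CC arrays, and -5.31 to -4.14 on GC arrays. Of the 3 endothelial genes, PECAM1 (0.25 ± 0.31, SD, n = 4) and VWF (-0.02 ± 1.26) were above background on 4 of 4 TH arrays, and CDH5 on 1 of 4. VWF was also above background on 4 of 4 oocyte arrays (-0.59 ± 1.08). The 4 leukocyte and blood genes PTPRC (-4.07 ± 0.67, n = 4), CD68, CD14, and HBB were above background on 4 of 4 TH arrays. CD68 and CD14 were so on every GC and CC array too, and PTPRC on none of these. The 5 granulosa and cumulus genes FSHR, AMH, INHBA, FOXL2, and SERPINE2 averaged -0.32 to 0.38 on TH arrays, 2.51 to 3.35 on GC arrays, and 3.31 to 3.79 on CC arrays. All 5 were above background on every TH, GC, and CC array. Among the TH arrays, replicate 4 had the highest mean of this list (0.38) and the highest CYP19A1 (-3.83) and HSD17B1 (3.44). The part of granulosa RNA in these TH values was not tested. Among the GC arrays, replicates 2 and 3 had the lowest means of this list (2.51 and 2.52) and the highest means of the theca genes (3.13 and 3.22). Levels are not compared between the lists. In bulk RNA, fewer cells of a type and less RNA per cell cannot be told apart.

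The genes fell into distinct patterns over the cell types. CYP17A1 was the theca gene, CYP19A1 and HSD17B1 were higher in GC and CC, and CYP11A1 was present in all 3 somatic cell types. STAR and FDX1 were high in TH and in oocytes and low in CC, and POR passed the test between 1 pair of cell types. In the limma F-test over TH, GC, CC, and oocytes, 7 of 7 genes passed an adjusted p of 0.05, where 71.3% of all genes did.

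**Figure D1:**
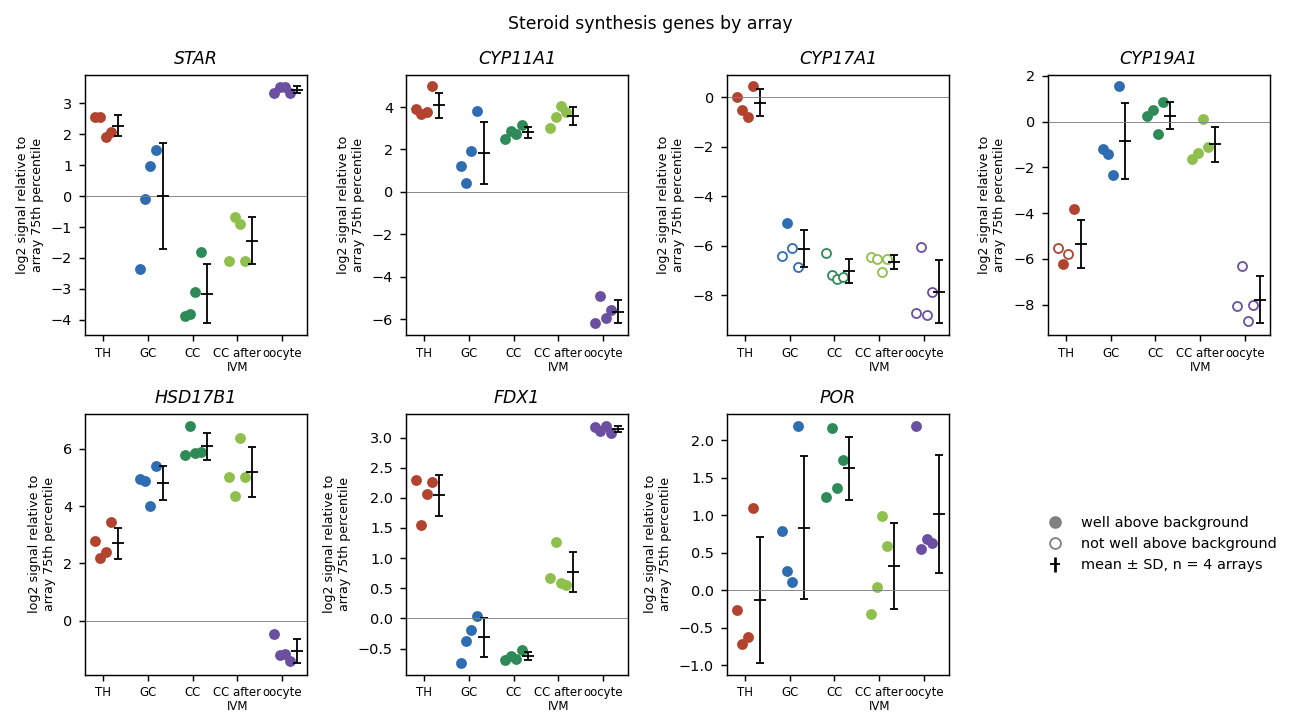
Expression of the 7 genes on each array (y axis, log2 processed signal relative to the 75th percentile of the array) in TH, GC, CC, CC after IVM, and oocytes. Filled points are well above background, open points are not, and the bars give the mean ± SD of 4 arrays. CYP17A1 was well above background on 4 TH arrays, 1 GC array, and no other array, whereas the 4 oocyte values of STAR and of FDX1 lay above those of all other groups.

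The transcript of the androgen-making enzyme was found mainly in TH. CYP17A1 measured 0.01, -0.51, -0.81, and 0.44 on the 4 TH arrays and -6.44, -5.09, -6.10, and -6.85 on the 4 GC arrays, of which only replicate 2 (-5.09) was well above background. The TH and GC values did not overlap, and the difference passed the test (adjusted p = 9.4e-07 by limma), but with 3 of 4 GC arrays below background its size was not measured. No CC, CC after IVM, or oocyte array had CYP17A1 above background, so for these groups the difference is a bound, and TH was at least 36.7-fold higher than CC (adjusted p = 1.1e-07) and at least 51.5-fold higher than oocytes (adjusted p = 3.7e-09). GC, CC, and oocytes had no measurable order among themselves. GC replicate 2 also had theca markers at a mean of 3.13 on this scale, against 1.13, 3.22, and 1.73 on GC replicates 1, 3, and 4, and their part in its CYP17A1 signal was not tested.

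The aromatase transcript showed the opposite distribution. CYP19A1 measured -5.52, -6.24, -5.80, and -3.83 on TH arrays, of which 2 were well above background, and -1.19, -1.42, -2.33, and 1.54 on GC arrays. Of these 2 TH arrays, replicate 4 was so at every spot, and replicate 2, the lowest, only at a single spot of probe B. On CC arrays CYP19A1 measured 0.23, 0.52, -0.55, and 0.84. The fitted GC mean was 22.6-fold higher than that of TH (log2 difference 4.50, SE 0.74, adjusted p = 0.00029 by limma), and the fitted CC mean was 48.8-fold higher (5.61, SE 0.74, adjusted p = 2.4e-05). Since CYP19A1 was well above background on only 2 of 4 TH arrays, the sizes of these differences were not measured in full. CC and GC overlapped and were not distinguished (1.11, 95% interval -0.48 to 2.70, adjusted p = 0.43). In oocytes CYP19A1 was below background on 4 of 4 arrays, at least 33.1-fold lower than in GC (adjusted p = 5.6e-07) and at least 71.6-fold lower than in CC (adjusted p = 9.5e-08). Against TH the bound for oocytes was only 1.47-fold, so the size of that difference was not measured. The difference between oocytes and TH passed the test (adjusted p = 0.0091 by limma). It was lost within slide 1, the slide of replicates 1 and 2 (adjusted p = 0.12).

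**Figure D2:**
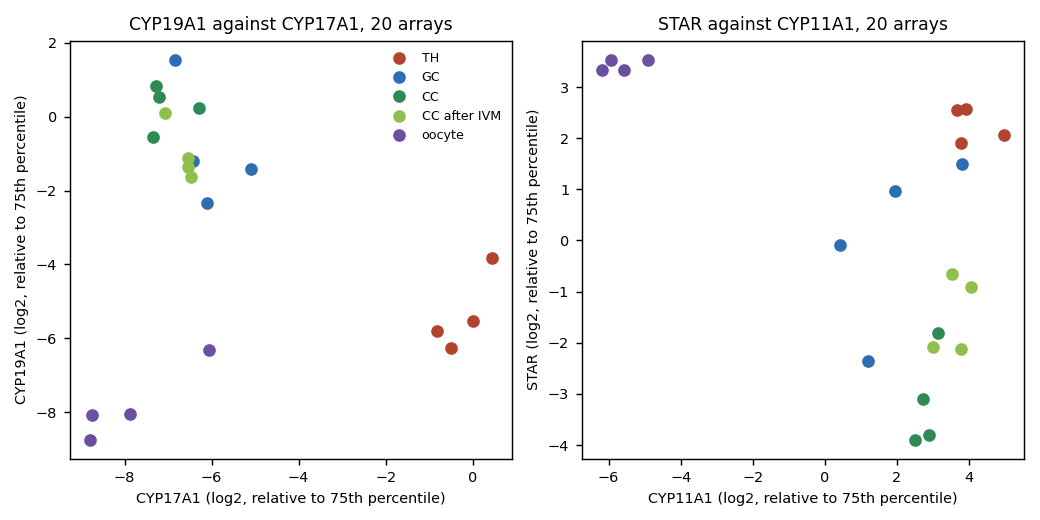
Left, CYP19A1 (y axis) against CYP17A1 (x axis) on each of the 20 arrays; right, STAR against CYP11A1; axes are log2 relative to the 75th percentile of the array and colours are the groups. TH arrays had CYP17A1 values between -0.81 and 0.44 with CYP19A1 under -3.8, GC and CC arrays were at the opposite corner, and oocyte arrays were low for both and combined high STAR (3.32 to 3.53) with low CYP11A1.

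HSD17B1, which encodes the enzyme for estradiol, had its highest signal in CC. It measured 5.78, 6.81, 5.85, and 5.89 in CC, between 3.99 and 5.42 in GC, between 2.18 and 3.44 in TH, and between -1.40 and -0.46 in oocytes. None of these 4 ranges overlapped. GC exceeded TH by 2.10 on the log2 scale (SE 0.35, adjusted p = 0.00028 by limma) and CC exceeded TH by 3.38 (adjusted p = 1.7e-06). The step from GC to CC was 1.28 (SE 0.35, adjusted p = 0.028), and it was lost when GC replicate 2 (adjusted p = 0.056), GC replicate 3 (0.096), CC replicate 2 (0.10), or CC replicate 4 (0.051) was left out. Oocytes were 141-fold lower than CC (log2 difference -7.14, adjusted p = 4.6e-11) but above background on 4 of 4 arrays.

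The transcript of the side chain cleavage enzyme was present in TH, GC, and CC. CYP11A1 measured 3.91, 3.66, 3.78, and 4.98 in TH, 1.20, 0.43, 1.94, and 3.80 in GC, and 2.51, 2.88, 2.73, and 3.13 in CC. Of these groups GC had the widest spread, with replicate 4 inside the range of TH and replicate 2 the lowest. The GC mean was 4.72-fold lower than that of TH (log2 difference -2.24, SE 0.55, adjusted p = 0.0062 by limma). CC lay below TH with no overlap, but the difference did not pass the threshold (-1.27, 95% interval -2.43 to -0.10, adjusted p = 0.098), nor did CC against GC (0.97, adjusted p = 0.33). Without GC replicate 4, CC was separated from both, with log2 differences of -1.27 from TH and 1.63 from GC (both adjusted p = 0.016). Oocytes had between -6.18 and -4.92. There probe B of CYP11A1 was above background on 4 of 4 arrays at -3.30 ± 0.28 (SD), while probe A was above background on 0 of 4. With probe B alone, oocytes were lower than TH by a log2 difference of -9.63 (adjusted p = 6.2e-11), than GC by -7.82 (6.6e-10), and than CC by -8.65 (2.1e-10).

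STAR did not follow CYP11A1. It measured 2.57, 2.55, 1.91, and 2.06 in TH, -2.35, -0.09, 0.97, and 1.49 in GC, and -3.89, -3.81, -3.10, and -1.81 in CC. In oocytes STAR measured 3.34, 3.52, 3.53, and 3.32, with an SD of 0.11. The order was oocytes and TH, then GC, then CC. Oocytes lay above all TH arrays, yet the difference of 1.16 did not pass the threshold (95% interval -0.22 to 2.53, adjusted p = 0.13 by limma). It passed in 4 of 33 alternatives, among them the deposited log2 values (1.74, adjusted p = 0.0023). Oocytes were compared with the other groups as well. They were higher than GC by a log2 difference of 3.43 (adjusted p = 0.00021) and, as fitted, 95.9-fold higher than CC (log2 difference 6.58, adjusted p = 1.8e-07). GC was 4.82-fold lower than TH (-2.27, SE 0.64, adjusted p = 0.016), and CC was 43.0-fold lower than TH (-5.43, adjusted p = 7.8e-06). CC was also below GC, with overlapping ranges (log2 difference -3.16, adjusted p = 0.0051).

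STAR was measured by a pair of distinct probes, whose opening 30 bases are given to identify them.
STAR probe A: cttttccaaactatgctactgtgtctttga
STAR probe B: tactatcttggaggagatggctggaagaag
Probe A averaged 5.16 in oocytes against 4.38 in TH and -1.18 in CC, and probe B averaged 1.66 against 0.14 and -5.36. Oocytes were higher than CC by 6.34 with probe A (adjusted p = 1.2e-06 by limma), whose CC spots were above background in 8 of 8 cases. Probe B also passed (adjusted p = 1.5e-07), but only 2 of its 8 CC spots were above background, so its difference was not measured in full. The gene values of STAR in CC include these spots, so the folds given above for CC were not measured in full either. The 5 theca markers on the same oocyte arrays averaged -4.50 to -3.37, with 3 or 4 of 5 above background, and the 5 granulosa and cumulus markers averaged -3.63 to -3.12, with 3 or 4 of 5 above background. Among CC arrays, replicate 4 had the highest STAR value (-1.81) and the highest mean of oocyte markers (-1.38, against -2.60, -3.27, and -3.61 on replicates 1 to 3), and the part of oocyte RNA in that value was not tested.

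STAR and CYP11A1 were also compared between GC and TH within each slide. Replicates 1 and 2 of each cell type shared a slide, and replicates 3 and 4 shared another. Within the former, GC was below TH by 3.78 for STAR (adjusted p = 0.021 by limma) and 2.97 for CYP11A1 (adjusted p = 0.017), as log2 values. Within the latter, the log2 differences GC minus TH were -0.75 for STAR (adjusted p = 0.35) and -1.51 for CYP11A1 (adjusted p = 0.21). On that slide CYP19A1 (4.42, adjusted p = 0.073) and HSD17B1 (1.79, adjusted p = 0.077) also missed the threshold, at nearly the same size as over both slides, whereas CYP17A1 and FDX1 passed it on each slide. The difference between the slides was not tested. On GC replicates 1 to 4, STAR was -2.35, -0.09, 0.97, and 1.49 and the mean of the theca markers was 1.13, 3.13, 3.22, and 1.73, and the part of theca RNA in the STAR values was not tested.

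The electron donors behaved differently from each other. FDX1, the donor for CYP11A1, measured 3.18, 3.11, 3.19, and 3.08 in oocytes, 2.30, 1.56, 2.07, and 2.26 in TH, -0.73 to 0.04 in GC, and -0.68 to -0.52 in CC. Oocytes exceeded TH by 1.10 on the log2 scale (SE 0.19, adjusted p = 8.1e-05 by limma), TH exceeded GC 5.13-fold (adjusted p = 2.4e-07), and GC and CC were not distinguished (-0.31, adjusted p = 0.38). The oocyte therefore had the highest FDX1 signal of the 4 cell types together with the lowest CYP11A1 signal. All 4 FDX1 probes, from both transcripts, gave this order of oocytes, TH, and then GC and CC, although the excess of oocytes over TH ranged from 0.52 with probe B (adjusted p = 0.035) to 1.22 with probe A (adjusted p = 6.6e-05). POR, the donor for CYP17A1 and CYP19A1, measured -0.26, -0.72, -0.62, and 1.10 in TH and 1.24, 2.16, 1.36, and 1.73 in CC. CC exceeded TH by 1.75 (SE 0.51, adjusted p = 0.014), which was lost with probe A alone (1.65, adjusted p = 0.13) and within slide 1 (2.19, adjusted p = 0.064) and slide 2 (1.31, adjusted p = 0.33). No other pair of cell types passed, although oocytes against TH passed in 14 of 33 alternatives. The F-test for POR (adjusted p = 0.038) was lost under 11 of 32 alternatives, among them the methods' analysis of variance (0.069) and leaving out any of 7 single arrays, namely TH replicates 1, 2, or 3, GC replicate 1, or CC replicates 2, 3, or 4 (0.050 to 0.11).

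Counted over the 7 genes, GC against TH had 2 higher and 4 lower (26.3% of all genes called), and CC against TH had 3 higher and 3 lower (31.8%). CC against GC had 1 higher, HSD17B1, and 1 lower, STAR (9.88%). Oocytes against TH had 1 higher, FDX1, and 4 lower (64.6%), of which CYP19A1 was below background in oocytes with a bound of only 1.47-fold. Oocytes against GC had STAR and FDX1 higher and 4 lower (68.6%), of which CYP17A1 had no measurable fold since oocytes lay below background and the GC bound was under 1. Oocytes against CC had STAR and FDX1 higher and CYP11A1, CYP19A1, and HSD17B1 lower (63.7%). With a 75th percentile scaling the median of all genes was shifted by 0.22 for GC minus TH, by -0.42, -0.62, and -0.40 for oocytes minus TH, GC, and CC, by -0.16 for CC minus GC, and by 0.37 for CC after IVM minus CC. The called differences above were larger than these shifts, and p-values measure the spread between samples whose animals are not given.

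**Figure D3:**
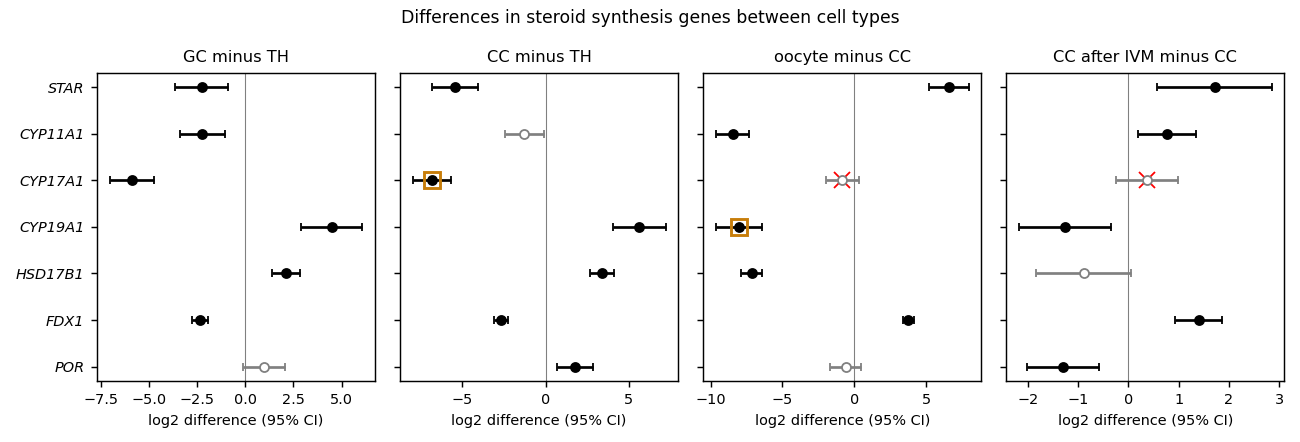
Log2 differences with 95% intervals for the 7 genes (x axis) in GC minus TH, CC minus TH, oocyte minus CC, and CC after IVM minus CC, from limma. Filled black points passed an adjusted p of 0.05 and open grey points did not; orange squares mark fitted values of a gene below background in the dimmer group, for which the text gives a bound, and red crosses mark a gene below background in both groups. CYP17A1 in GC minus TH also rests on 3 GC arrays below background. CYP19A1 in GC minus TH and CC minus TH rests on TH arrays of which only 2 of 4 were well above background. STAR and FDX1 lie to the left in CC minus TH and to the right in oocyte minus CC.

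After 4 h of IVM, the 3 genes of the early steps rose in CC and 2 genes of the later steps fell. FDX1 measured 0.68, 1.27, 0.59, and 0.55 after IVM against -0.68, -0.62, -0.67, and -0.52 before, without overlap, a rise of 1.39 (SE 0.21, adjusted p = 0.00081 by limma). STAR measured -2.09, -0.66, -0.90, and -2.11 after IVM, overlapping with CC, a rise of 1.71 (SE 0.51, adjusted p = 0.024). CYP11A1 measured 3.01, 3.52, 4.05, and 3.77, also overlapping with CC, a rise of 0.77 (SE 0.26, adjusted p = 0.034). CYP19A1 measured -1.62, -1.35, 0.10, and -1.12, lower by 2.39-fold with overlap (log2 difference -1.26, SE 0.41, adjusted p = 0.032). POR measured -0.31, 0.05, 0.99, and 0.59, all under the lowest CC value of 1.24 (-1.30, SE 0.32, adjusted p = 0.012). HSD17B1 measured 5.02, 4.34, 6.39, and 5.02, which did not pass (-0.89, 95% interval -1.83 to 0.04, adjusted p = 0.10). It passed as lower in 4 of 23 alternatives, among them the deposited log2 values (-1.32, adjusted p = 0.022) and without CC after IVM replicate 3 (-1.29, adjusted p = 0.012). CYP17A1 was below background in both groups. Of the 7 genes 5 were called, and so were 45.8% of all genes.

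These differences were unequal in strength. FDX1 and POR passed in all alternatives that gave a value, whereas CYP11A1 and CYP19A1 each missed the threshold in 11 of 23 and STAR in 7 of 23. With quantile normalization, where the median of all genes was shifted by 0.01, the values were 1.37 for FDX1, 1.68 for STAR, and -1.37 for POR, and CYP11A1 was 0.54 (adjusted p = 0.21) and CYP19A1 -1.23 (adjusted p = 0.069). All 4 arrays of CC after IVM were on a slide of their own, so IVM and slide cannot be told apart. Of the oocyte markers, 4 of 6 were lower after IVM, with a mean over the list of -5.56 to -3.57 against -3.61 to -1.38 in CC. Of the granulosa and cumulus markers, 3 of 5 were lower and 1 higher (2.22 to 2.86 against 3.31 to 3.79). Of the 3 endothelial markers 2 were higher (-6.15 to -5.10 against -7.28 to -6.65), at levels near background. PECAM1 was above background on 0 of 4 CC arrays and 1 of 4 after IVM, VWF on 1 of 4 and 3 of 4, and CDH5 on none. The 4 leukocyte and blood markers were called higher (-4.32 to -3.34 against -5.67 to -4.84), of which CD68 and CD14 were above background on every array of both groups, PTPRC on none, and HBB on 0 of 4 CC arrays and 2 of 4 after IVM. The part of these cells in the differences was not tested.

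The probes of a gene stood at different levels but gave the same direction in every called difference of the gene. POR probe A averaged -2.58 and probe B 2.34 in TH, and CYP11A1 probes averaged 1.83 and 6.33 there, so no level is compared between probes or genes. With probe B of POR alone, GC exceeded TH by 1.05 (adjusted p = 0.049 by limma) and oocytes exceeded TH by 1.29 (adjusted p = 0.0059), neither of which passed with probe A (0.49 and 0.26). The difference of HSD17B1 between CC and GC passed with probe A (1.13, adjusted p = 0.0044) and not with probe B (1.43, adjusted p = 0.28). After IVM, CYP11A1 rose by 1.05 with probe B (adjusted p = 0.0056) and the value with probe A was 0.50 (adjusted p = 0.30).

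**Figure D4:**
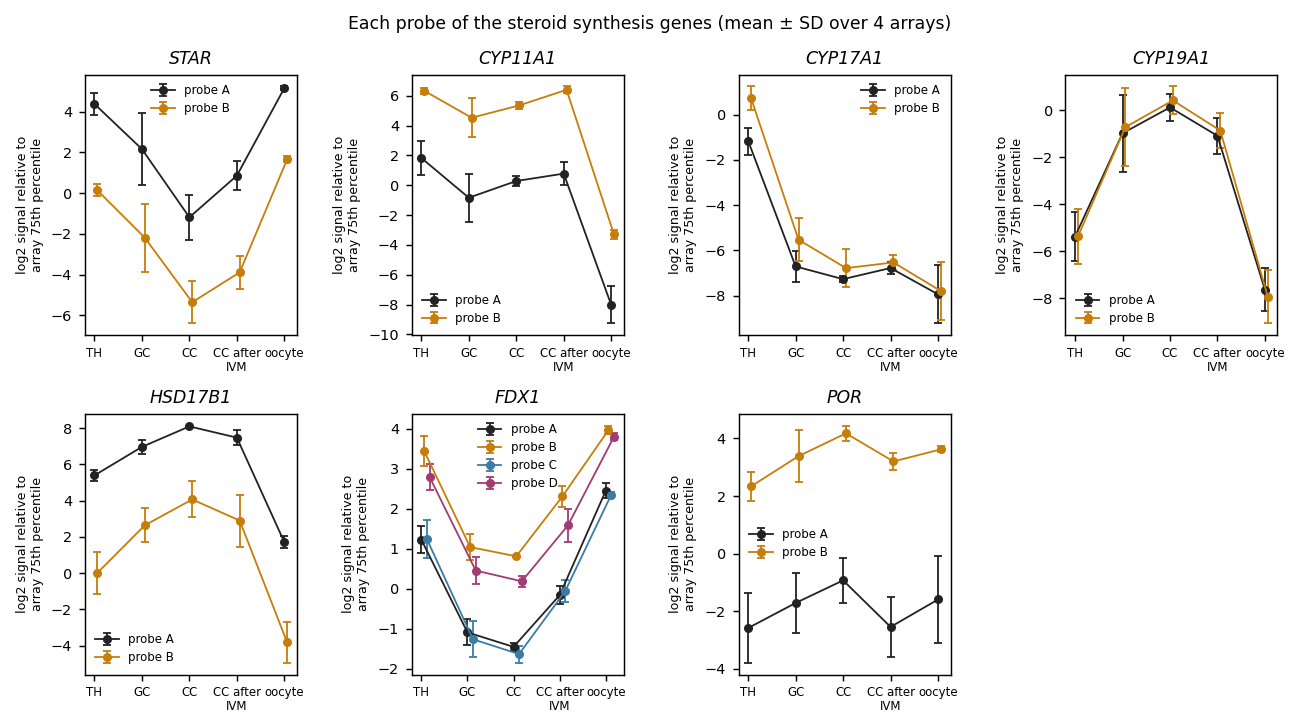
Mean ± SD over 4 arrays of each distinct probe of the 7 genes (y axis, log2 relative to the 75th percentile of the array) in the 5 groups. Lines join the means of the same probe. The probes of a gene run nearly in parallel at levels of their own, and those of CYP19A1, which share most of their bases, lie on top of each other.

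Of the genes that supply cholesterol, 11 were measured. Of these, 3 were higher and 2 lower in GC than in TH (26.3% of all genes called), with a median log2 difference of -0.08 against 0.22 for all genes. SCARB1, the receptor for high-density lipoprotein, averaged 5.53 ± 0.24 (SD, n = 4) in TH, 4.05 ± 0.43 in GC, and 4.62 ± 0.15 in CC, and its lower level in GC passed the test (adjusted p = 4.3e-05 by limma). In oocytes 7 of the 11 were lower than in TH and 4 were higher (64.6% of all genes called), and SCARB1 stood at -2.39. After IVM 6 of the 11 rose and 1, STARD5, fell by 1.77 (adjusted p = 0.00062), where 45.8% of all genes were called, with a list median of 0.83 against 0.37 for all genes. Those that rose included SCARB1 (1.67, adjusted p = 0.006), NPC1, which exports cholesterol from lysosomes (1.28, adjusted p = 0.0075), and ACBD3, a partner of the mitochondrial protein TSPO (2.20, adjusted p = 2.4e-05).

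Of other steroid enzymes and their redox partners, 3 of 27 were higher and 2 lower in GC than in TH, and 22 did not pass the test, where 26.3% of all genes did. HSD3B, which forms progesterone from pregnenolone, averaged 5.46 ± 0.36 (SD, n = 4) in TH, 4.26 ± 1.23 in GC, and 4.96 ± 0.14 in CC, and no difference between these passed the test. FDXR, which reduces ferredoxin, averaged 2.39 in CC and 1.70 in GC, against 1.55 in TH and -1.50 in oocytes, lower there than in TH (log2 difference -3.05, adjusted p = 3.8e-07 by limma). The oocyte thus had high FDX1 and low FDXR. SULT2A1, a steroid sulfotransferase, was above background on 4 of 4 GC and CC arrays (-2.63 ± 0.61 and -2.84 ± 0.47) and on 0 of 4 TH and oocyte arrays. HSD11B2, which inactivates cortisol, was 2.96 ± 0.17 in oocytes, -2.47 ± 0.18 in TH, -5.27 ± 1.80 in GC, and -5.93 ± 1.17 in CC, and oocytes exceeded TH by 5.43 (adjusted p = 4.2e-06). In GC and in CC it was above background on only 2 of 4 arrays each. CYB5A, cytochrome b5, was also higher in oocytes than in TH (2.21, adjusted p = 1.2e-06). Against TH, 5 of the 27 were higher and 11 lower in oocytes (64.6% of all genes called). After IVM 7 rose and 7 fell (45.8% of all genes called), and HSD3B (-1.37, adjusted p = 0.002) and FDXR (-1.98, adjusted p = 0.0015) were among those that fell while FDX1 rose.

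Of the 14 receptors, transcription factors, and other regulators of these genes, 3 were higher in GC than in TH, 5 were lower, and 6 did not pass. Of all genes, 26.3% were called in this comparison. LHCGR, the receptor for luteinizing hormone, averaged -1.09 ± 0.62 (SD, n = 4) in TH and -6.00 ± 1.49 in GC, where it was above background on 2 of 4 arrays (adjusted p = 4.4e-05 by limma). FSHR, the receptor for follicle-stimulating hormone, averaged -3.29 ± 0.70 in TH, 2.13 ± 0.44 in GC, and 2.29 ± 0.17 in CC, and GC exceeded TH by 5.41 (adjusted p = 2.3e-08). NR5A2, a nuclear receptor of granulosa cells, averaged -4.43 in TH, 0.80 in GC, and 1.42 in CC (GC minus TH 5.23, adjusted p = 5.1e-07). It was above background on 3 of 4 TH arrays, so that size was not measured in full. Its relative NR5A1 averaged -0.44, -0.78, and -0.25. NR2F2 was lower in GC than in TH by 3.37 (adjusted p = 3.5e-08). After IVM 3 of the 14 rose and 7 fell (45.8% of all genes called), with a list median of -0.74 against 0.37 for all genes. Among those that fell were NR5A2 (-3.17, adjusted p = 6.6e-05) and GATA4 (-2.71, adjusted p = 2.2e-05), and FOXL2 went from above background on 4 of 4 CC arrays to 0 of 4 after IVM (adjusted p = 0.00037), with the slide again inseparable from IVM.

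**Figure D5:**
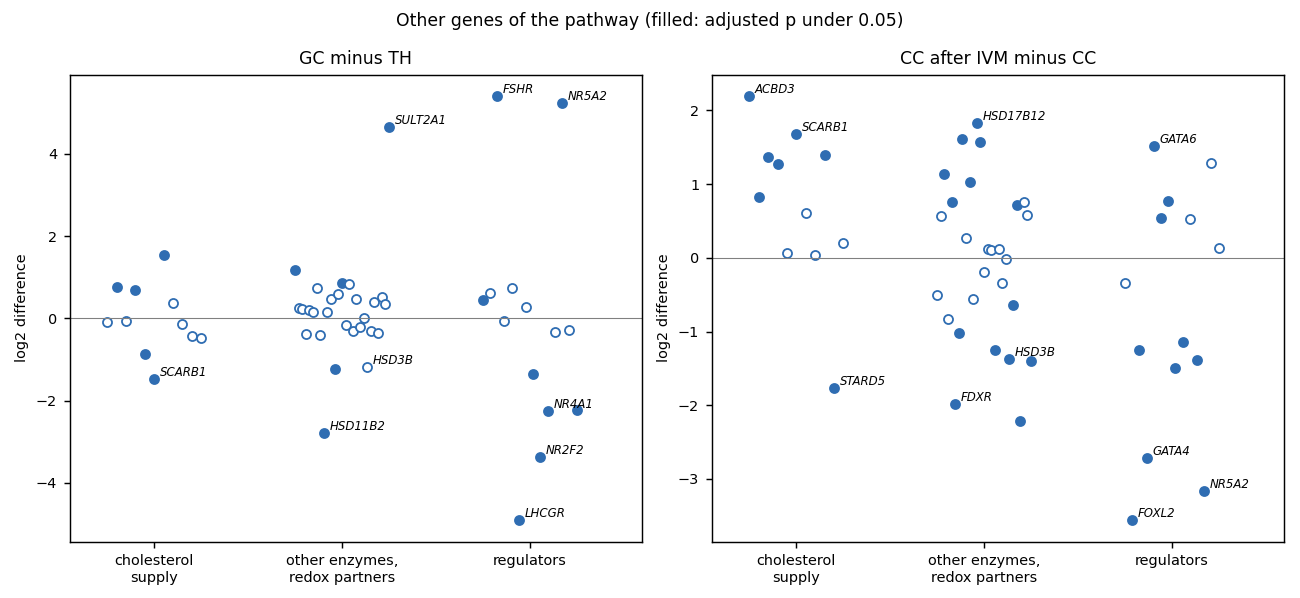
Log2 differences (y axis) of the other genes of the pathway in GC minus TH (left) and CC after IVM minus CC (right), each point a gene, in the lists of cholesterol supply (11 genes), other steroid enzymes and redox partners (27), and regulators (14). Filled points passed an adjusted p of 0.05. FSHR, NR5A2, and SULT2A1 lie highest on the left and LHCGR lowest, and on the right FOXL2, NR5A2, and GATA4 lie lowest. The plotted values of SULT2A1 and NR5A2 in TH, LHCGR and HSD11B2 in GC, and FOXL2 after IVM include arrays below background and are not measured sizes. The same holds for other dim genes of the lists.

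Over the 20 arrays, other genes followed the pattern of each enzyme closely, as Pearson correlations that rest largely on the differences between the same 5 groups. Among 17562 genes above background on at least 4 arrays, CYP17A1 was most like KCNIP1, TFF2, and RGS5 (r = 0.986, 0.986, and 0.985), which like it averaged highest in TH. CYP19A1 was most like GPT (0.981), C3orf49 (0.969), and CHST8 (0.967). HSD17B1 was most like CCND2 (0.989), AMH (0.982), and ST3GAL-IV (0.977), and AMH (anti-Müllerian hormone) averaged 5.97 in CC and 4.68 in GC, against 2.83 in TH and -2.65 in oocytes. For STAR the nearest were the transcript ENSBTAT00000002110 (0.975), RASGRP4 (0.956), and ADCY7 (0.951), and for FDX1 they were DOK4 (0.984), RBPMS (0.977), and FAM124B (0.974), all highest in oocytes. CYP11A1 was most like SLC12A4 (0.986), CASQ1, and PPIC (both 0.985), and POR was most like ACAD9 (0.922), B3GALT6 (0.884), and ZNF142 (0.88).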

How the data were processed

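Total RNA of 20 samples was measured, 1 array each. For each array the authors deposited Feature Extraction output (version 10.7.3.1), in which spot intensity is background-subtracted and detrended but not normalized between arrays, and the probes are annotated on UMD 3.1. They also deposited a table of log2 values, each the log2 median signal of a spot minus the median of its array. The authors' marks for signal well above background, saturation (0 spots used here), and outliers (at most 23 spots per array, left out) were used.

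Control spots were not used. Log2 processed signals were scaled by subtracting the 75th percentile of their array, a choice made here. A gene was given the median of its spots, as in the methods of the study. Of 61325 probes, 9779 lacked a gene name, of which 734 were named by accession from a RefSeq gene list. Groups were taken from the sample titles. limma 3.58.1 (lmFit and eBayes, R 4.3.3, data.table version 1.17.8) was fitted to 22550 genes in 16 arrays (oocytes, TH, GC, and CC), and separately in the 8 arrays of CC before and after IVM, with Benjamini–Hochberg adjustment over all genes and a threshold of 0.05. A gene with no array above background in a group was given a bound against the higher of the lowest signal above background and its own. Single probes were fitted over 51307 distinct sequences. The fits were tested on simulated data. Depth is not defined for arrays, and their number limits the precision. Figures were drawn with Python 3.11.15, numpy 2.4.6, pandas 2.3.3, and matplotlib 3.10.9.

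Besides the 7 enzymes, the text names genes of 3 pathway lists (11 of 12, 27 of 30, and 14 of 14 genes matched), marker genes, and the 3 genes most correlated with each enzyme. The 7 genes and all lists were chosen with earlier results of these data known. HSD3B is the name on the array, a synonym of HSD3B1 in RefSeq. Alternatives were quantile, median, and detected-probe scaling, normexp background correction (offset 50), the deposited log2 values, other probe summaries, a filter on dim genes, all 20 arrays fitted together, replicate and slide blocks, single slides, arrayWeights, eBayes with trend, the methods' analysis of variance, and leaving out each array. Each probe alone, and slide as a random block for IVM, were added after seeing the data. Promoters and proteins were not analysed here, and 1 gene of the lists is not reported by name. Same-numbered TH and GC samples deviated together (r = 0.128 to 0.372 over 4 pairs), which was not so in every pair of the other groups, and the replicate number was fitted as a block as an alternative. Replicates correlated at 0.961 to 0.994.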

Additional observations from a re-analysis of the deposited data

Results flagged for a closer look

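Of 35 sets of 4 arrays (7 genes in 5 groups), 4 had an array apart from the other 3 by Dixon's criterion, which chance exceeds in about 1 of 20. CYP17A1 measured -6.30 on CC replicate 1 against -7.34 to -7.20 on the others, and -7.08 on CC after IVM replicate 3 against -6.55 to -6.46, all below background. HSD17B1 measured 6.81 on CC replicate 2 against 5.78 to 5.89. POR measured 2.19 on oocyte replicate 1 against 0.55 to 0.68.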

How the results depend on the processing

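The number of the 7 genes called stayed within 1.5 times in 222 alternatives and moved further in 17. For GC against TH it was 6 and became 2 within slide 2, the slide of replicates 3 and 4, where each group had 2 arrays. For CC against GC it was 2 and became 1 with all 20 arrays in 1 fit, 0 within slide 1, and 1 within slide 2. For CC after IVM against CC it was 5 and became 3 with quantile normalization, with all 20 arrays in 1 fit, with arrayWeights, and with the replicate number as a block. The replicate block moved no other count by over 1.5 times. Same-numbered samples of different cell types correlated at r -0.17 to 0.37, with 10 of 24 pairs over 0.1, among them all 4 pairs of TH and GC, for which the block left 6 genes called. For IVM the 4 pairs had r -0.18 to -0.02. Leaving out 1 array gave 1 to 3 for CC against GC, 2 to 4 for CC after IVM against CC, and 6 of 6 for GC against TH. The sign of 3 uncalled differences reversed. POR in oocytes minus GC (0.18) became -0.026 with detected-probe scaling, -0.49 within slide 2, and ranged from -0.21 (without oocyte replicate 1) to 0.63 (without GC replicate 4) when 1 array was left out. CYP17A1, below background, became 0.076 in oocytes minus CC and -0.14 in CC after IVM minus CC with quantile normalization. With slide as a random block (correlation -0.26), HSD17B1 was also called lower after IVM (adjusted p = 0.013 by limma). The adjusted p-value of each of the 7 genes was lower with this block than in the main fit. No slide held both groups, so the block cannot remove the slide from the comparison, and its p-values may be too small. Slide as a fixed block and single slides could not be fitted for IVM, and the filter on dim genes left no value for CYP17A1 there. The cause of these changes was not tested. Weak signals limit CYP17A1, CYP19A1 in TH, and both in oocytes.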

Other observations

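The arrays that stood apart for HSD17B1 and POR did so through 1 of the 2 probes. The value of the HSD17B1 probe containing AATAAA minus that of its partner was 2.53 on CC replicate 2 and 4.33 to 4.72 on the other CC arrays, and for POR it was 3.90 there and 5.31 to 5.61 on the others. On oocyte replicate 1 these gaps were 3.50 for HSD17B1 and 3.09 for POR, against 5.71 to 6.76 and 5.78 to 6.10 on the other oocyte arrays. In TH, GC, and CC after IVM, too, a single array gave the smallest gap of its group for both genes, namely TH replicate 4 (3.45 and 3.83), GC replicate 4 (3.59 and 4.73), and CC after IVM replicate 3 (2.78 and 4.25). Over 2575 genes with 1 such probe and 1 partner, the median gap on these 5 arrays was 0.19 to 0.26, within the range of 0.12 to 0.31 of all 20 arrays. The POR value of 2.19 on oocyte replicate 1 thus came with probe A at 0.64, where the other oocyte arrays had probe A at -2.42 to -2.21, and with probe B at 3.73. Neither probe of CYP11A1 contains AATAAA. Its gap, probe B minus probe A, was also smallest on TH replicate 4 (2.82), GC replicate 4 (5.04), CC replicate 2 (4.71), and CC after IVM replicate 3 (4.63). In oocytes, where probe A was below background on all arrays, it was smallest on replicate 2 (2.68). Smaller gaps on these arrays were thus not confined to HSD17B1 and POR.

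CYP11B1, which makes glucocorticoids in the adrenal cortex, was above background on 4 of 4 arrays of every group, at -4.12 ± 0.53 (SD, n = 4) in oocytes, and between -2.37 ± 0.17 (TH) and -1.56 ± 0.24 (CC after IVM) in the somatic groups. NR0B1, a repressor of steroid synthesis, averaged 0.32 in oocytes, -2.67 in TH, -4.03 in GC, and -5.07 in CC (above background on 3 of 4 arrays), and oocytes exceeded CC by 5.39 (adjusted p = 5.5e-11 by limma).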
